A study of Drosophila melanogaster with 14 samples.

Results

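The dosage compensation complex RNAs of Drosophila melanogaster are the 7 RNAs of the MSL complex: the protein coding msl-1, msl-2, msl-3, mle and mof, and the noncoding roX1 and roX2. They were taken by gene symbol, and all 7 were present among the 15682 genes of the table of wild type extracts and among the 15288 genes of the table of mutants. RNA-seq after ribosomal RNA depletion had been run on 14 libraries, 2 for each of 7 groups. In the first table, Oregon R wild type (wt) embryos of 90 to 180 min after egg laying had been separated into nuclear and cytoplasmic extracts, and whole wt embryos of 0 to 45 min served as the early syncytial stage. In the second table, embryos of 0 to 180 min came from transheterozygous mothers that bore grp fs1, or the Slbp pairs 10/12 (Slbp 10/12) or 10/15 (Slbp 10/15), mated to wt Oregon R males, and were set beside wt Oregon R embryos of the same collection window. The mutations are thus maternal, and the embryos could carry a wt paternal allele. The grp gene encodes the checkpoint kinase Chk1, and Slbp encodes the protein that binds the stem-loop of histone mRNAs. No source used here separates the embryos by sex, so each library holds RNA of males and females.

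The MSL complex binds the single X chromosome of males and raises its transcription to match the pair of X chromosomes of females. MSL1 is its scaffold, MSL2 the subunit that is made in males only, MSL3 a chromodomain protein, MLE an RNA helicase that remodels the roX RNAs, and MOF the acetyltransferase that modifies lysine of histone H4. In females, Sex-lethal (Sxl) binds the msl-2 mRNA and blocks its splicing and translation, so that msl-2 transcripts are present in both sexes while the protein is not. The roX RNAs are X-linked, act in part redundantly, and are assembled into the complex in males.

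On the BDGP6.54 annotation, roX1 (FBgn0019661) lies on the minus strand of chromosome X, from 3857230 to 3862697, and roX2 (FBgn0019660) on the plus strand of X, from 11579065 to 11580432. The msl-2 gene (FBgn0005616) occupies the minus strand of 2L from 3462218 to 3466112. Of the remaining members, mof (FBgn0014340) is also X-linked, while msl-1 (FBgn0005617) is on 2L, mle (FBgn0002774) on 2R and msl-3 (FBgn0002775) on 3L. These coordinates were matched by gene identifier and do not belong to the older build on which the reads had been aligned.

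Recovered depth was between 17368684 and 33866670 reads per library over all 14 libraries. The labels of the mutants were met by the targeted genes. The grp RNA stood at 2059 and 1718 normalized read counts in grp fs1 embryos, against 14113 and 13306 in wt embryos. The Slbp RNA stood at 211 and 236 in Slbp 10/12 embryos and at 262 and 186 in Slbp 10/15 embryos, against 2776 and 2873 in wt embryos. Of 4 RNAs taken as nuclear markers, 1 was higher and 3 were lower in nuclear than in cytoplasmic extracts, as deposited and with upper quartile scaling. The noncoding Hsromega RNA was higher in nuclear extracts (5824 and 3485) than in cytoplasmic extracts (1140 and 1682), whereas 7SK, a nuclear small RNA, had 53639 and 48503 in nuclear extracts, against 642726 and 1065240 in cytoplasmic extracts. The spliceosomal small RNAs U2 and U4 were lower in nuclear extracts as well (snRNA:U2:34ABb by limma at a log2 fold change of -3.03, adjusted p = 0.00248, and snRNA:U4:25F at -2.92, adjusted p = 0.00251). A higher value in an extract is therefore given below as a property of that extract.

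The first question was when these RNAs appeared. The msl-2 and roX1 RNAs were about 7 times higher in both extracts of blastoderm embryos than in early embryos. In the limma fit to all groups as deposited, msl-1, msl-3, mle and mof were not called higher in either extract than in early embryos. There msl-1 was lower in cytoplasmic extracts. With only the compared groups, mle was called higher in nuclear extracts (log2 fold change 0.63, limma adjusted p = 0.0162). Without cytoplasmic replicate 2, the log2 fold change of msl-3 in cytoplasmic extracts was 0.92, against 0.54 with both. In nuclear extracts against early embryos, 2 of the 7 members were higher and none was lower by limma at an adjusted p under 0.05, while 24% of all 10335 genes tested were called in either direction (8.35% higher and 15.7% lower). The same counts held at an unadjusted p under 0.05, by edgeR and by DESeq2. In cytoplasmic extracts against early embryos, 3 members were higher and 1 was lower, where 36.9% of all genes were called (17.8% higher and 19% lower). Both comparisons share the early libraries. With upper quartile scaling, 1883 genes were higher and 1508 lower in nuclear extracts, against 863 and 1622 as deposited. The median log2 fold change of the 7 members was 0.46 in nuclear extracts and 0.54 in cytoplasmic extracts, beside medians of 0.09 and -0.00424 over all genes tested.

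The msl-2 RNA, which encodes the male-limiting subunit, had 1998 and 2057 normalized read counts in nuclear extracts and 2045 and 1770 in cytoplasmic extracts, against 274 and 284 in early embryos. All 4 libraries of blastoderm extracts lay far above both early libraries. Over early embryos the log2 fold change was 2.86 in nuclear extracts (SE 0.31, limma adjusted p = 3.34e-06) and 2.77 in cytoplasmic extracts (SE 0.31, limma adjusted p = 7.58e-06). Between the extracts the msl-2 values overlapped, with a log2 fold change of 0.09 (SE 0.31, limma adjusted p = 0.809).

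The noncoding roX1 RNA reached 16374 and 12742 normalized read counts in nuclear extracts and 12215 and 15461 in cytoplasmic extracts, against 1853 and 2293 in early embryos. Its extracts did not overlap with early embryos, and they overlapped with each other. The log2 fold change over early embryos was 2.81 in nuclear extracts (SE 0.31, limma adjusted p = 5.37e-06) and 2.74 in cytoplasmic extracts (SE 0.31, limma adjusted p = 9.47e-06). Nuclear over cytoplasmic extracts gave 0.07 (SE 0.31, limma adjusted p = 0.853). The calls of msl-2 and roX1 over early embryos were kept in every alternative that was run. In bulk libraries, fewer cells with an RNA and less RNA per cell cannot be told apart.

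The second noncoding RNA, roX2, did not follow roX1. It had 421 and 190 normalized read counts in nuclear extracts and 559 and 1654 in cytoplasmic extracts, against 261 and 302 in early embryos. The nuclear libraries lay on either side of the early ones, and both cytoplasmic libraries lay above every other library but differed from each other more than any other group. The log2 fold change of cytoplasmic extracts over early embryos was 1.77 (SE 0.48, limma adjusted p = 0.00943), and that of nuclear over cytoplasmic extracts was -1.76 (SE 0.48, limma adjusted p = 0.00539). Nuclear extracts against early embryos gave 0.01 (SE 0.48, limma adjusted p = 0.99). The difference between the extracts was not called without nuclear replicate 1 (adjusted p = 0.0589) or replicate 2 (adjusted p = 0.209), and that between cytoplasmic extracts and early embryos was not called without either nuclear library (adjusted p = 0.079 and 0.0772), which serve there only to estimate the spread. With upper quartile scaling neither was called (-1.35, adjusted p = 0.174, and 1.69, adjusted p = 0.132). Neither was called with no filter on low values (limma adjusted p = 0.179 and 0.228). With only the compared groups, cytoplasmic extracts against early embryos were not called (limma adjusted p = 0.0675).

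The sum of 5 RNAs of differentiated tissues of older embryos (Mhc, Act57B, elav, Tm2 and repo) moved with roX2 between replicates of each extract. Their summed normalized read count was 19679 and 8064 in nuclear extracts and 3113 and 17759 in cytoplasmic extracts, against 16522 and 14089 in early embryos, and none was at 0 in any of these libraries. In each extract, the library with the larger sum also had more roX2, while in early embryos it had less. Between the extracts, elav was called higher in nuclear ones (log2 fold change 1.67, limma adjusted p = 0.0041), the direction opposite to roX2. None of the 5 was called lower there. The sum in early embryos, labelled 0 to 45 min, lay within the range of the later extracts. The part of the 5 RNAs in the roX2 values was not tested.

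**Figure D1:**
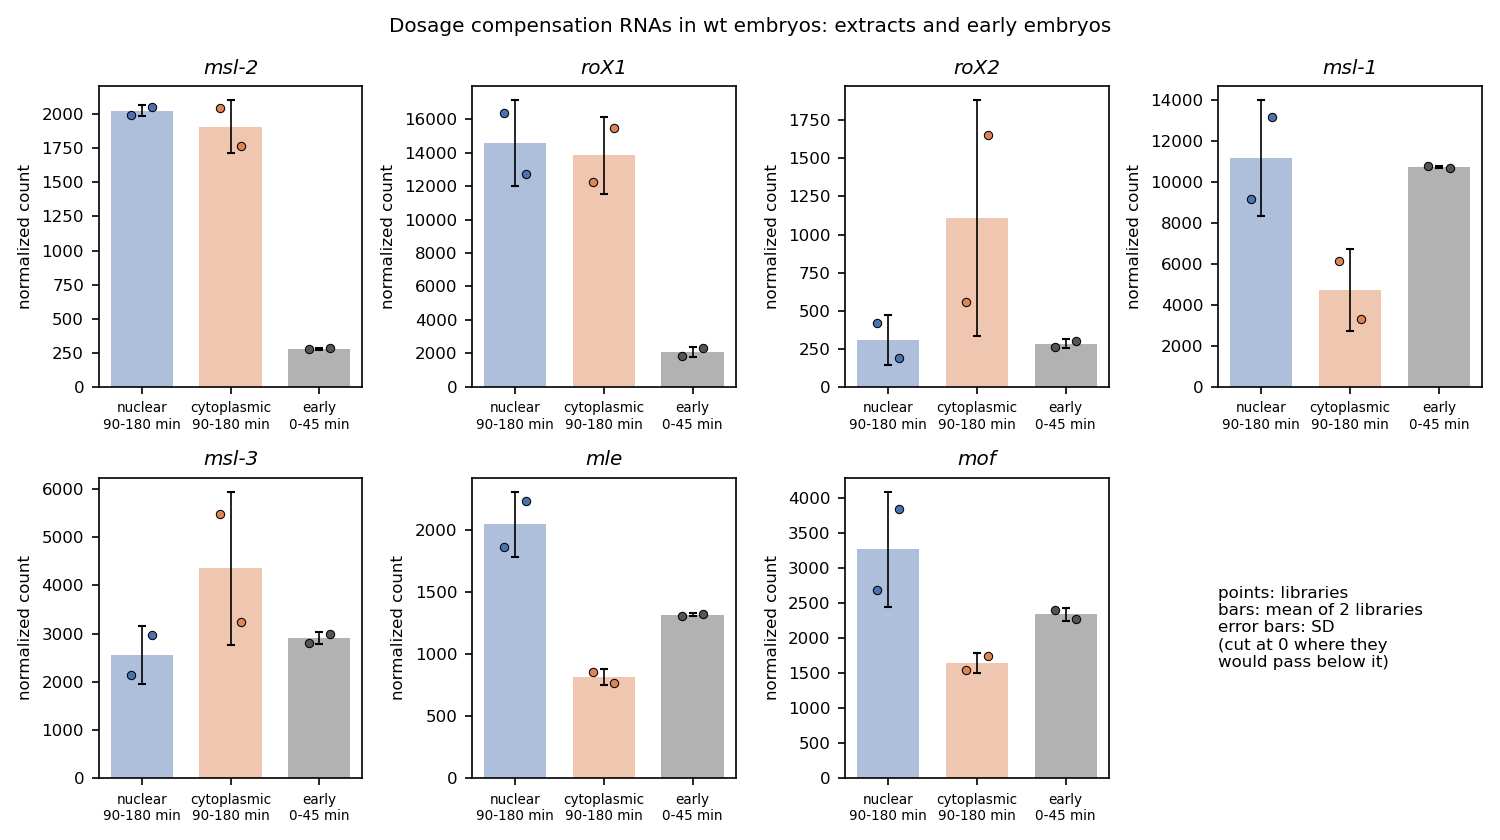
Normalized read counts (y axis, from 0) of the 7 RNAs in nuclear and cytoplasmic extracts of embryos of 90 to 180 min and in early embryos of 0 to 45 min. Points are libraries, bars are means of 2 libraries and error bars are SD. The msl-2 and roX1 bars are lower in early embryos than in either extract, while msl-1, mle and mof are lowest in cytoplasmic extracts.

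The next comparison set the 2 extracts against each other. Nuclear against cytoplasmic extracts, 3 members were higher and 1 was lower, beside 55.5% of all genes called (26.9% higher and 28.6% lower). The higher ones were mle, msl-1 and mof, and the lower one was roX2. Again mle, msl-1 and mof were called higher with upper quartile scaling, and no member lower. The median of the 7 members was 0.09, beside 0.24 over all genes.

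The mle RNA, which encodes the helicase, had 1860 and 2231 normalized read counts in nuclear extracts, against 859 and 768 in cytoplasmic extracts, and 1310 and 1328 in early embryos. The extracts lay on either side of the early embryos without overlap. The log2 fold change of nuclear over cytoplasmic extracts was 1.33 (SE 0.30, limma adjusted p = 0.00133). Against early embryos, neither nuclear extracts (0.63, limma adjusted p = 0.154) nor cytoplasmic extracts (-0.70, limma adjusted p = 0.0766) passed the threshold. Both did with libraries rescaled to their upper quartiles (limma adjusted p = 0.00839 and 0.0148). Nuclear extracts were also called with only the compared groups (limma adjusted p = 0.0162). Cytoplasmic extracts were also called by edgeR (adjusted p = 0.0274) and DESeq2 (adjusted p = 0.0459). Without cytoplasmic replicate 1 or 2 their log2 fold change was -0.78 and -0.62.

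The scaffold RNA msl-1 had 9155 and 13136 in nuclear extracts, against 6139 and 3324 in cytoplasmic extracts, and 10761 and 10676 in early embryos. Cytoplasmic extracts were lowest, and the nuclear libraries spanned the early values. The log2 fold change of nuclear over cytoplasmic extracts was 1.28 (SE 0.35, limma adjusted p = 0.00511), and that of cytoplasmic extracts over early embryos was -1.25 (SE 0.35, limma adjusted p = 0.0109). The first was not called with no filter on low values (adjusted p = 0.0968), or without nuclear replicate 1 (adjusted p = 0.0525) or 2 (adjusted p = 0.118). The second was not called with no filter (adjusted p = 0.143) or with only the compared groups (adjusted p = 0.0572). It was also not called without any 1 of the early libraries (-1.24 and -1.25) or of the nuclear libraries (-1.25 each).

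The acetyltransferase RNA mof had 2688 and 3846 in nuclear extracts, against 1544 and 1748 in cytoplasmic extracts, and 2405 and 2272 in early embryos. The ranges of the 3 groups did not overlap. Nuclear over cytoplasmic extracts, the log2 fold change was 0.97 (SE 0.30, limma adjusted p = 0.0117). It was not called with only the compared groups (limma adjusted p = 0.0507). Nor was it called without nuclear replicate 2 (0.71) or without either early library (0.97 each). Nuclear extracts against early embryos were called with upper quartile scaling only (0.79, adjusted p = 0.0401, against 0.46, adjusted p = 0.314, as deposited).

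The chromodomain RNA msl-3 ran the other way, with 2131 and 2979 in nuclear extracts, against 5473 and 3232 in cytoplasmic extracts, and 2813 and 2988 in early embryos. Both cytoplasmic libraries were above every other library, and the nuclear and early libraries overlapped. Its log2 fold change of nuclear over cytoplasmic extracts was -0.74 (SE 0.32, limma adjusted p = 0.0617), and it was called only without cytoplasmic replicate 2 (-1.12, adjusted p = 0.000662) or with DESeq2 (adjusted p = 0.0424).

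Expressed as the nuclear enrichment score of the study, which is 2 times the nuclear mean over the sum of the early, cytoplasmic and nuclear means and is 0.667 for an RNA at equal levels, mle scored 0.979, msl-2 0.962, roX1 0.956, mof 0.901 and msl-1 0.838. The msl-3 RNA scored 0.521 and roX2 0.361. The score mixes stage with extract. The nuclear share of the nuclear and cytoplasmic means together was 71.5% for mle, 70.2% for msl-1 and 66.5% for mof. It was near an even split for msl-2 (51.5%) and roX1 (51.3%), 37% for msl-3 and 21.7% for roX2. These shares compare normalized levels of the extracts, and are not the part of an RNA that lay in nuclei. For msl-2 and roX1 the log2 fold change of nuclear over cytoplasmic extracts reached 0.50 and 0.48 among the alternatives, never called.

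The next comparisons asked how the maternal mutations affected these RNAs. In all 3 mutants msl-2, roX1 and roX2 fell, and no other member was lower by the test. In grp fs1 embryos against wt, 1 member was higher and 3 were lower, beside 43% of 9868 genes tested (14.3% higher and 28.7% lower). In Slbp 10/12 embryos none was higher and 3 were lower, beside 48.6% of genes (15.6% higher and 33% lower), with 0 higher also at an unadjusted p under 0.05, by edgeR 1 (msl-3) and by DESeq2 0. In Slbp 10/15 embryos 3 were higher and 3 lower, beside 58.9% of genes (20.1% higher and 38.9% lower). With upper quartile scaling the split over all genes was 176 higher and 3771 lower, 174 and 5197, and 238 and 5241, against 1407 and 2836, 1539 and 3256, and 1979 and 3837 as deposited. The medians of the 7 members were -0.09, 0.01 and 0.20 in the order grp fs1, Slbp 10/12, Slbp 10/15, beside -0.10, -0.11 and -0.19 over all genes. All 3 comparisons share the wt libraries.

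The msl-2 RNA had 163 and 265 normalized read counts in grp fs1 embryos, 101 and 95.2 in Slbp 10/12 embryos, and 157 and 65.3 in Slbp 10/15 embryos, against 582 and 616 in wt embryos. Every mutant library lay below both wt libraries. Relative to wt the log2 fold change was -1.52 in grp fs1 embryos (SE 0.41, limma adjusted p = 0.0228), -2.60 in Slbp 10/12 embryos (SE 0.41, limma adjusted p = 0.00295) and -2.55 in Slbp 10/15 embryos (SE 0.41, limma adjusted p = 0.00256). With no filter on low values the fall in grp fs1 embryos was not called (limma adjusted p = 0.0938). Without wt replicate 1 or 2, or grp fs1 replicate 1, the fall in grp fs1 embryos was no longer called (adjusted p = 0.135, 0.147 and 0.135).

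The roX1 RNA had 168 and 604 in grp fs1 embryos, 298 and 261 in Slbp 10/12 embryos, and 583 and 43.6 in Slbp 10/15 embryos, against 4917 and 5056 in wt embryos. The highest mutant library held less than any wt library by a wide margin, but the replicates of grp fs1 and of Slbp 10/15 were far apart. The log2 fold change was -3.96 in grp fs1 embryos (SE 1.09, limma adjusted p = 0.0248), -4.15 in Slbp 10/12 embryos (SE 1.09, limma adjusted p = 0.0182) and -4.95 in Slbp 10/15 embryos (SE 1.09, limma adjusted p = 0.00797). With either wt library left out, none of these was called (adjusted p = 0.157 and 0.159 for grp fs1, 0.136 and 0.132 for Slbp 10/12, 0.0831 and 0.0818 for Slbp 10/15), nor with no filter on low values (adjusted p = 0.116, 0.0947 and 0.0547 in the same order). The call was also lost in grp fs1 embryos without grp fs1 replicate 1 (adjusted p = 0.156), and in Slbp 10/12 embryos without Slbp 10/12 replicate 1 (adjusted p = 0.0741) or 2 (adjusted p = 0.0764).

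The roX2 RNA was close to absent in the mutants. It had 0.933 and 17.9 normalized read counts in grp fs1 embryos, which are 1 and 19 reads, and no read in any of the 4 libraries of Slbp 10/12 and Slbp 10/15, against 96.6 and 111 in wt embryos (83 and 102 reads). With a floor of 3 reads over each group, roX2 was at least 77.5-fold lower in Slbp 10/12 embryos and at least 66.5-fold lower in Slbp 10/15 embryos than in wt, a limit that covers counting error only. Both differences passed the test (limma adjusted p = 0.00234 and 0.00194). In grp fs1 embryos the log2 fold change was -4.11 (SE 0.97, limma adjusted p = 0.0151). That change was not called by edgeR (adjusted p = 0.0588) or DESeq2 (adjusted p = 0.0656). Nor did limma call it with no filter on low values (adjusted p = 0.0663) or with only the compared groups (adjusted p = 0.0614). Without wt replicate 1 or 2 it was -4.22 and -4.01, not called. The roX2 RNA passed the filter on low values through the wt and grp fs1 groups.

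**Figure D2:**
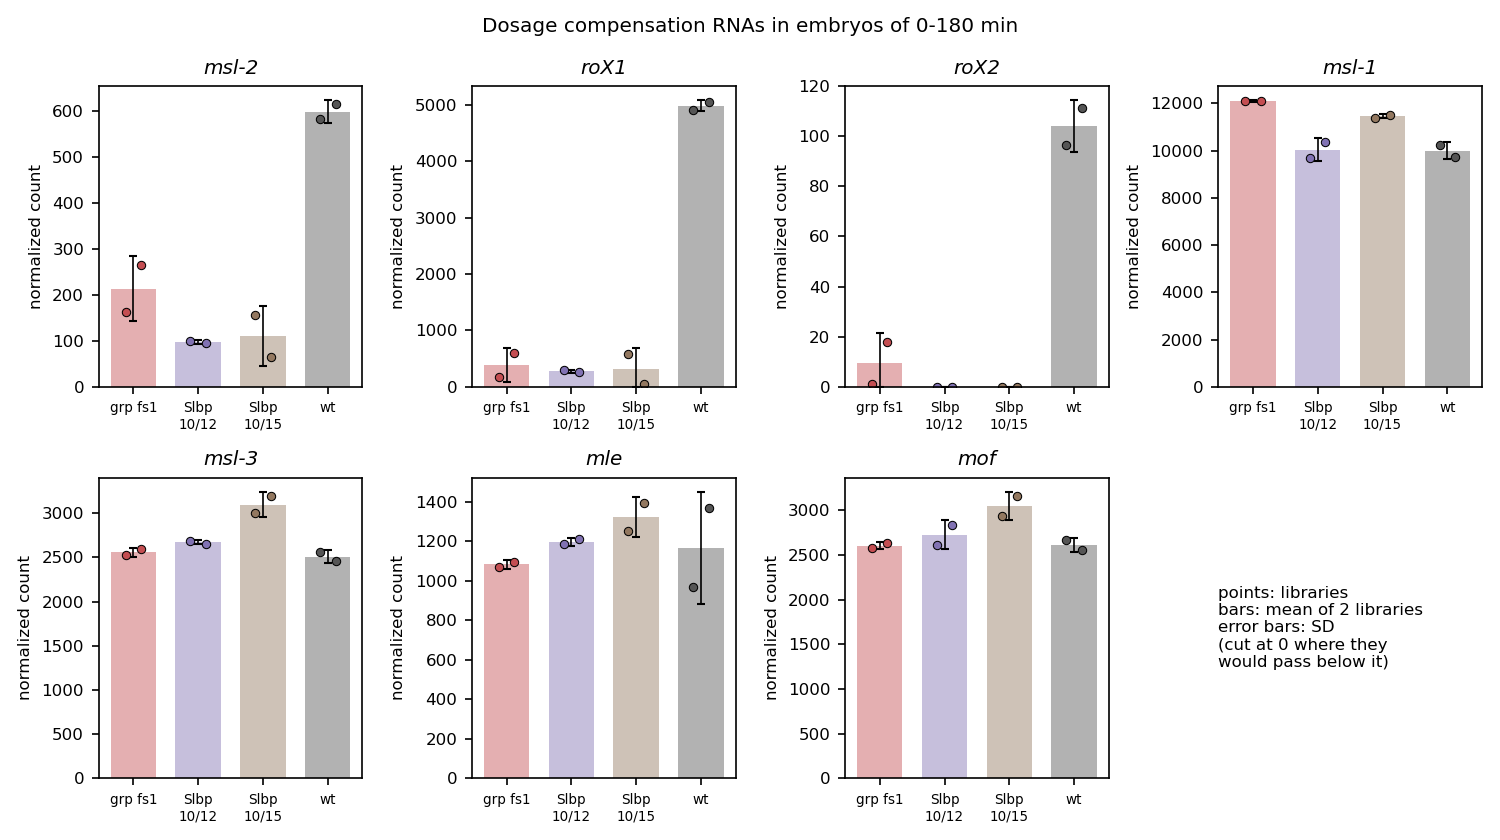
Normalized read counts (y axis, from 0) of the 7 RNAs in embryos of 0 to 180 min from grp fs1, Slbp 10/12, Slbp 10/15 and wt mothers. Points are libraries, bars are means of 2 libraries and error bars are SD, drawn no lower than 0. The msl-2, roX1 and roX2 points of every mutant lie below the wt points, whereas the remaining 4 RNAs lie near wt in every mutant.

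The remaining members, msl-1, msl-3, mof and mle, differed from wt by at most 0.30 on the log2 scale as deposited. The msl-1 RNA had 12120 and 12084 in grp fs1 embryos, 9688 and 10374 in Slbp 10/12 embryos, and 11390 and 11525 in Slbp 10/15 embryos, against 10241 and 9738 in wt embryos. The grp fs1 and Slbp 10/15 libraries lay above both wt libraries, and the Slbp 10/12 libraries overlapped with them. Relative to wt, msl-1 was higher in grp fs1 embryos (log2 fold change 0.28, SE 0.06, limma adjusted p = 0.00881) and in Slbp 10/15 embryos (0.20, SE 0.06, limma adjusted p = 0.0198), but with upper quartile scaling both signs turned (-0.03 and -0.18). In Slbp 10/15 embryos it was not called without wt replicate 2 (adjusted p = 0.0793) or Slbp 10/15 replicate 1 (adjusted p = 0.0647) or 2 (adjusted p = 0.0936).

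The msl-3 RNA had 2524 and 2595 in grp fs1 embryos, 2685 and 2652 in Slbp 10/12 embryos, and 2996 and 3199 in Slbp 10/15 embryos, against 2561 and 2453 in wt embryos. Both Slbp mutants lay above wt, while grp fs1 overlapped with it. In Slbp 10/15 embryos the log2 fold change was 0.30 (SE 0.06, limma adjusted p = 0.00415), and -0.07 with upper quartile scaling.

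The mof RNA had 2576 and 2634 in grp fs1 embryos, 2610 and 2842 in Slbp 10/12 embryos, and 2938 and 3161 in Slbp 10/15 embryos, against 2664 and 2556 in wt embryos. Slbp 10/15 was the one mutant without overlap with wt. Its log2 fold change was 0.22 (SE 0.07, limma adjusted p = 0.0217), and -0.15 with upper quartile scaling. The call was lost without wt replicate 1 (adjusted p = 0.0626) or 2 (adjusted p = 0.105), or Slbp 10/15 replicate 2 (adjusted p = 0.136).

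The mle RNA had 1068 and 1098 in grp fs1 embryos, 1184 and 1211 in Slbp 10/12 embryos, and 1252 and 1397 in Slbp 10/15 embryos, against 967 and 1368 in wt embryos. The wt libraries were the farthest apart and all groups overlapped with them. No mutant passed the test, with log2 fold changes of -0.09, 0.06 and 0.20 (SE 0.15 each, limma adjusted p = 0.663, 0.765 and 0.276) in the order grp fs1, Slbp 10/12, Slbp 10/15. Without wt replicate 2, Slbp 10/15 was called at 0.45 (adjusted p = 0.022). With upper quartile scaling the all-gene median was -0.41, -0.49 and -0.56 in the 3 mutants. That scaling shifts all genes of a library nearly alike. The place of the 4 RNAs relative to that median could therefore hardly change, and is not a separate result.

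**Figure D3:**
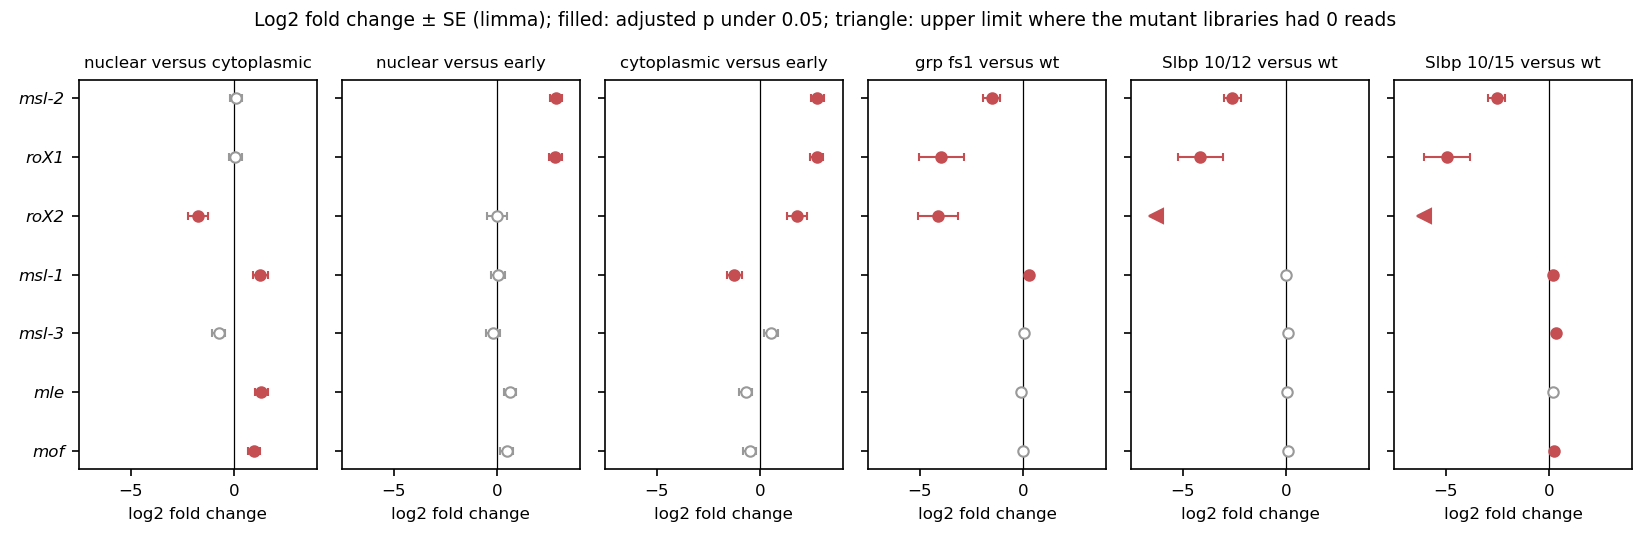
Log2 fold change (x axis) of the 7 RNAs (rows) in 6 comparisons, the group named first over the group named after it. Points are limma estimates with SE, filled where the adjusted p was under 0.05, and triangles mark the upper limit for roX2 in the Slbp mutants, whose libraries had 0 reads. In the mutants the filled points left of 0 are msl-2, roX1 and roX2, and the small positive changes of msl-1, msl-3 and mof turned negative with upper quartile scaling.

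The mutants were also compared with each other. Slbp 10/12 against Slbp 10/15, 0 of the 7 members were called by limma or by edgeR, and 2 (msl-1 and msl-3, both lower in Slbp 10/12) by DESeq2, beside 3.29% of all genes by limma (1.81% higher and 1.48% lower). At an unadjusted p under 0.05, 3 members (msl-1, msl-3 and mof) were lower in Slbp 10/12 embryos. The grp fs1 embryos against the mean of the Slbp mutants gave 2 higher members and 1 lower, beside 35.7% of all genes (19.4% higher and 16.3% lower). The fall of msl-2 was smaller in grp fs1 embryos by 1.05 on the log2 scale, short of the threshold (SE 0.35, limma adjusted p = 0.0535). It was called by DESeq2 (1.04, adjusted p = 0.0227) and with a filter of 5 in each library (1.05, limma adjusted p = 0.0342). In 13 of 16 alternatives it stayed uncalled, and fits without single libraries gave 0.71 to 1.40. The fall of roX1 differed by 0.59 (SE 0.95, limma adjusted p = 0.663).

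In the mutants, summed levels of some other RNAs fell with msl-2, roX1 and roX2. That of 5 RNAs listed as cleared maternal RNAs did not. These were bcd, nos, osk, smg and stg. In wt extracts their sum was 61828 and 90708 (nuclear) and 202781 and 90041 (cytoplasmic), against 133880 and 131410 in early embryos. By limma, nos and osk were lower than in early embryos in nuclear extracts, bcd and smg in cytoplasmic extracts, and stg in neither. The sum of the 5 was between 97002 and 110151 in the mutant libraries, against 95321 and 96727 in wt libraries. Among them nos was called lower in both Slbp mutants, and osk in Slbp 10/15 only, where bcd, smg and stg were higher. The summed normalized read count of 8 zygotic blastoderm RNAs (slam, nullo, bnk, Sry-alpha, sna, twi, eve and ftz) was between 5386 and 9752 in the 6 mutant libraries, against 20233 and 20425 in wt libraries. None of the 8 was at 0 in any library. By limma 5, 7 and 8 of the 8 were lower in the order grp fs1, Slbp 10/12, Slbp 10/15, and none was higher. The shares of all genes called lower were 28.7%, 33% and 38.9%. In grp fs1 and Slbp 10/15, the library with more of these RNAs had more msl-2 and more roX1 (9134 against 5878 in grp fs1 replicates 2 and 1, and 9752 against 7185 in Slbp 10/15 replicates 1 and 2).

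The 5 RNAs of older embryos summed to between 6.53 and 1996 in the mutant libraries, against 11570 and 13201 in wt libraries. Up to 2 of the 5 were at 0 in a mutant library. The grp fs1 library with 1996 was the one with 19 roX2 reads, and that with 6.53 had 1 read. The part of these RNAs in the falls of msl-2, roX1 and roX2 was not tested.

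**Figure D4:**
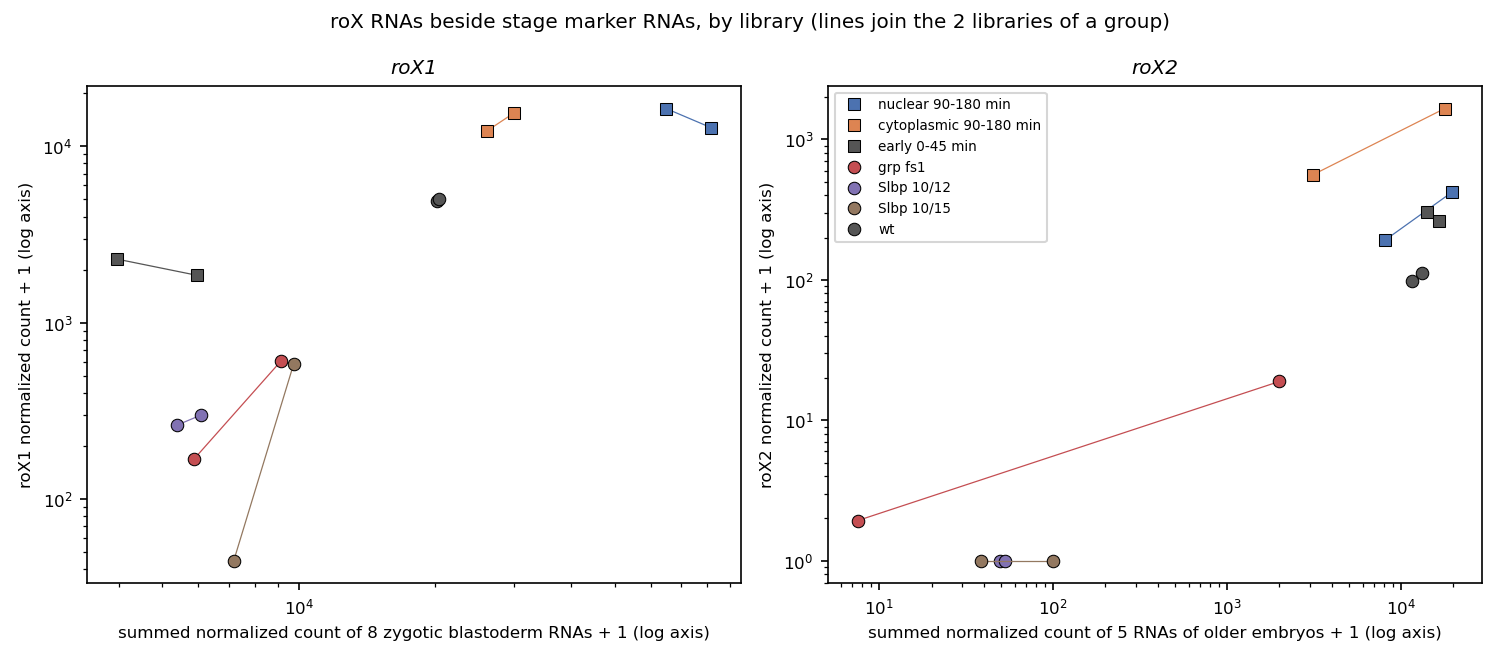
Normalized read count of roX1 beside the sum of 8 zygotic blastoderm RNAs, and of roX2 beside the sum of 5 RNAs of older embryos (log axes, 1 added), 1 point per library. Lines join the libraries of a group, squares are the extracts and early embryos, and circles are embryos of 0 to 180 min. The mutant libraries lie at the low end of roX2, and the grp fs1 library with the sum of 1996 stands above its replicate.

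Levels per kb of gene length gave an order of the members within each group. In wt embryos of 0 to 180 min, msl-1 stood highest at 1991 ± 70.9 normalized read counts per kb (SD, n = 2), followed by roX1 (1315 ± 25.9) and msl-3 (1273 ± 38.6), which overlapped. Below them came mof (865 ± 25.5), mle (249 ± 60.5), msl-2 (156 ± 6.35) and roX2 (75.5 ± 7.55), none of which overlapped with its neighbour in the order. In each mutant the order of msl-1, msl-3, mof and mle was that of wt, and roX1 stood next below mle, at 102 ± 81.2 per kb (grp fs1), 73.8 ± 6.92 (Slbp 10/12) and 82.6 ± 101 (Slbp 10/15). In grp fs1 and in Slbp 10/15 it overlapped with msl-2 below it.

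The order differed between the extracts and early whole embryos, which differ in both stage and fraction, and also between the extracts. In nuclear extracts roX1 stood first (3839 ± 677 per kb), before msl-1 (2222 ± 561), msl-3 and mof, which overlapped, msl-2 (527 ± 10.9), mle (436 ± 56) and roX2 (222 ± 119). In cytoplasmic extracts roX1 (3649 ± 605) was followed by msl-3 (2209 ± 804), then came msl-1, roX2, mof and msl-2, each overlapping with the next, and mle was last (174 ± 13.8). In early embryos roX1 came next (547 ± 82.2), below msl-1 (2136 ± 12), msl-3 (1472 ± 62.6) and mof (775 ± 31.1), and msl-2 was last (72.5 ± 1.87).

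The per kb level of roX1 over that of roX2 was 14.1 and 24.3 in nuclear extracts and 7.94 and 3.39 in cytoplasmic extracts, against 2.58 and 2.75 in early embryos. In grp fs1 embryos it was 65.4 and 12.3, the first resting on 1 roX2 read, against 18.5 and 16.5 in wt embryos. Thus roX1 exceeded roX2 per length in every library with a roX2 read, least in early embryos.

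Genes that overlap or adjoin a member may bear on its counting, and some of those of roX1, roX2, msl-2 and msl-3 are described here. Also near are yin, 268 bases from roX1 on its strand, and BBS1, 371 bases from msl-3 on the other strand. The mir-4971 gene overlaps msl-2 by 111 bases on its strand. The ec gene lies on the opposite strand from roX1 and overlaps its annotated span by 392 bases, and the strand setting of the counting is not given in the sources used here. The ec RNA had 65.3 and 172 normalized read counts in grp fs1 embryos, 117 and 128 in Slbp 10/12 embryos, and 293 and 35.6 in Slbp 10/15 embryos, against 1579 and 1793 in wt embryos. In every group but Slbp 10/12, the library with more roX1 also had more ec. Unlike roX1, it differed between extracts, with 4357 and 4172 in nuclear extracts, against 1092 and 1337 in cytoplasmic extracts (log2 fold change 1.82, limma adjusted p = 0.000107). Whether reads of ec and roX1 were exchanged was not tested.

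The neighbours of roX2 are nod, 339 bases away, and CG11695, 258 bases away, both on its strand. The nod RNA had 4090 and 3428 in grp fs1 embryos, 3162 and 3546 in Slbp 10/12 embryos, and 2511 and 2861 in Slbp 10/15 embryos, against 2541 and 3189 in wt embryos. In no mutant was nod lower by the test. CG11695 had 516 and 438 in grp fs1 embryos, 385 and 460.5 in Slbp 10/12 embryos, and 364 and 379 in Slbp 10/15 embryos, against 524 and 499 in wt embryos. It was lower in Slbp 10/15 embryos (log2 fold change -0.46, SE 0.13, limma adjusted p = 0.0216), the direction of roX2, and not called in the other two mutants. In the extracts nod and CG11695 were both lower in nuclear than in cytoplasmic extracts (log2 fold change -2.56 and -2.64, limma adjusted p = 1.39e-05 and 1.16e-05), the same direction as roX2. CG3246 lies 265 bases from msl-2 on its strand. Like msl-2, it was lower in both Slbp mutants (log2 fold change -5.13 and -4.69, limma adjusted p = 0.0023 and 0.0025). In grp fs1 embryos it was not called. Pdsw, 44 bases from msl-2 on the other strand, was not called in any mutant. The form3 gene overlaps msl-3 by 85 bases on the other strand. It was called lower in every mutant (-4.27, -2.48 and -2.49), where msl-3 was not. These changes rest on few form3 reads, 35 and 46 in wt embryos, where msl-3 had 2201 and 2249. In the mutants form3 had 0 and 5 reads (grp fs1), 6 and 11 (Slbp 10/12), and 8 and 6 (Slbp 10/15). Exchange of reads was not tested.

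Genes with a pattern most like each of the 3 changing RNAs were ranked by the root mean square difference of log2 group levels over the 7 groups, among 7262 genes. Nearest to roX1 were Tom (0.16), a Bearded family inhibitor of Notch signalling, CG13894 (0.26) and wntD (0.28), a Wnt ligand that inhibits Dorsal. Tom had 209 and 664 in grp fs1 embryos, 165 and 322 in Slbp 10/12 embryos, and 458 and 83.1 in Slbp 10/15 embryos, against 3643 and 3816 in wt embryos. It followed roX1 in which replicate was higher in grp fs1 and Slbp 10/15 but not in Slbp 10/12. Nearest to msl-2 were ac (0.32), a proneural transcription factor, CG15480 (0.33) and CG5059 (0.36).

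Nearest to roX2 was TpnC73F (0.56), a muscle troponin C, before CG8596 (0.58) and CG14265 (0.65). TpnC73F had 0 and 21.7 in grp fs1 embryos, 0 and 0 in Slbp 10/12 embryos, and 0 and 0.99 in Slbp 10/15 embryos, against 107 and 128 in wt embryos. It had 186 and 73.7 in nuclear extracts and 43.4 and 300.3 in cytoplasmic ones, against 206 and 129 in early embryos. The cytoplasmic and nuclear replicates with more TpnC73F were also those with more roX2. In early embryos the replicate with more TpnC73F had less roX2 (261, against 302). The cytoplasmic mean of TpnC73F (172) was near its early mean (167), whereas that of roX2 was higher (1106, against 282). All group levels of a gene share the 14 libraries, and no test was made of these likenesses.

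Regulators and partners of the complex were measured as a list of 11 genes. They were mostly higher in nuclear than in cytoplasmic extracts, with 9 of 11 called higher (median log2 fold change 1.99, and again 9 with upper quartile scaling), where 26.9% of all genes were higher. Against early embryos 1 was higher in nuclear extracts, beside 8.35% of all genes, and 6 were lower in cytoplasmic extracts, beside 19% of all genes, with 3 and 7 under upper quartile scaling. JIL-1, a kinase of histone H3 found on the male X, had 4907 and 6605 in nuclear extracts, against 595 and 702 in cytoplasmic extracts. The nuclear pore protein gene Nup153 had 19898 and 25034 in nuclear extracts, against 2299 and 2990 in cytoplasmic extracts, and was the 1 gene of the list called higher than in early embryos (0.93, SE 0.31, limma adjusted p = 0.0401).

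In the mutants the list was called higher and lower at 1 and 3 genes in grp fs1 embryos, 2 and 1 in Slbp 10/12 embryos, and 5 and 1 in Slbp 10/15 embryos, beside 14.3% and 28.7%, 15.6% and 33%, and 20.1% and 38.9% of all genes. With upper quartile scaling the 5, 4 and 2 genes called were lower. Sxl, the repressor of msl-2 in females, had 4563 and 4318 in grp fs1 embryos, 4237 and 4770 in Slbp 10/12 embryos, and 3290 and 2920 in Slbp 10/15 embryos, against 5766 and 5344 in wt embryos. All mutant libraries were below both wt libraries. For Sxl the log2 fold change was -0.32, -0.30 and -0.84 in the order grp fs1, Slbp 10/12, Slbp 10/15 (SE 0.09 each, limma adjusted p = 0.0217, 0.0226 and 0.000801). JIL-1 had 5171 and 5708 in Slbp 10/12 embryos and 5768 and 6000 in Slbp 10/15 embryos, against 1817 and 4047 in wt embryos. It was called higher in Slbp 10/12 (1.00, limma adjusted p = 0.0318) and Slbp 10/15 embryos (1.12, limma adjusted p = 0.0181), neither of which was called with upper quartile scaling (0.62 and 0.74).

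The NSL complex is the second complex that holds MOF, and it acts at active promoters in both sexes. Of its 8 genes, 4 were higher in nuclear than in cytoplasmic extracts, beside 26.9% of all genes, and 6 with upper quartile scaling. Against early embryos, wds, a WD repeat subunit, was higher in nuclear extracts (1.08, SE 0.38, limma adjusted p = 0.0485) and MBD-R2 was lower (-1.15, SE 0.32, limma adjusted p = 0.0127). With upper quartile scaling wds was not called there (1.41, adjusted p = 0.0916), and 5 genes of the list were higher and 1 lower. In the mutants, 3 of the 8 were lower in grp fs1 embryos, beside 28.7% of all genes, and 2 were higher in each Slbp mutant, beside 15.6% (Slbp 10/12) and 20.1% (Slbp 10/15), but with upper quartile scaling the genes called in the Slbp mutants were lower, 2 in Slbp 10/12 and 1 in Slbp 10/15 embryos. The wds RNA rose by 0.45 and 0.50 on the log2 scale in Slbp 10/12 embryos and in Slbp 10/15 embryos (SE 0.08 each, limma adjusted p = 0.00475 and 0.00259), and by 0.06 and 0.13, not called, with upper quartile scaling.

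The 9 X counting genes, which encode activators and repressors of Sxl transcription, were tested last among the lists. In nuclear extracts against early embryos 6 were higher (median 3.74), beside 8.35% of all genes. In the mutants 5, 7 and 5 were lower in the order grp fs1, Slbp 10/12, Slbp 10/15, beside 28.7%, 33% and 38.9% of all genes, with 5, 8 and 7 lower under upper quartile scaling. The JAK/STAT ligand gene os had 39.2 and 115 in grp fs1 embryos, 19.2 and 21 in Slbp 10/12 embryos, and 58.2 and 25.7 in Slbp 10/15 embryos, against 410 and 352 in wt embryos. The transcription factor gene run had 56 and 168 in grp fs1 embryos, 31.1 and 32.3 in Slbp 10/12 embryos, and 111 and 88.1 in Slbp 10/15 embryos, against 441 and 538 in wt embryos. Every mutant library was below wt for both.

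The bZIP gene sisA stood apart, with 772 and 2408 in grp fs1 embryos, 35.7 and 21.8 in Slbp 10/12 embryos, and 234 and 94 in Slbp 10/15 embryos, against 337 and 397 in wt embryos. It was higher in grp fs1 (1.89, SE 0.60, limma adjusted p = 0.0389, and 1.58 but not called with upper quartile scaling) and lower in Slbp 10/12 embryos (-3.66, SE 0.60, limma adjusted p = 0.00337). The difference between grp fs1 and the mean of the Slbp mutants was 4.38 (SE 0.52, limma adjusted p = 0.00126).

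Genes of the X chromosome, on which the complex acts, were set beside those of the 4 major autosomal arms. The median log2 fold change of 1624 X-linked genes was -0.03 for grp fs1, -0.03 for Slbp 10/12 and -0.08 for Slbp 10/15 embryos, beside -0.12, -0.13 and -0.21 for 7927 autosomal genes. The share called lower was 25.1%, 26.1% and 33.5% on X, beside 29.5%, 34.5% and 40.1% on the autosomes. These are descriptions over genes, which are not replicates, and no test was made.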

How the data were processed

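RNA-seq libraries were aligned by the authors with TopHat on the BDGP5.78/dm3 genome after FastQC 0.10.1, and featureCounts is named among the tools per the labels. The deposited values are a signal, read counts divided by size factors by the authors (DESeq per the labels, its second version per the methods), and the table of mutants also holds FPKM deposited by the authors, which was not tested. The strand setting of the counting is not given in the sources used here. Values were whole multiples of 1 step in every library (100% within 0.01 of a whole read), which gave the reads.

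Log2(normalized read count + 1) was tested with limma 3.58.1 (R 4.3.3) using a trended variance, with all groups of a table in 1 fit and a term for each. Genes needed a mean of at least 5 in 1 group, and all 7 members passed in both tables. The tests were two-sided, with Benjamini-Hochberg adjustment over all genes tested and a threshold of 0.05. Fold changes are on the log2(value + 1) scale, which understates changes of low genes. Tables were normalized separately and never compared by test. No source says that replicates were separate collections, so a p-value here reflects the spread of 2 libraries per group, which may be technical. The fit was tested on simulated data. The alternatives tried were: upper quartile scaling, a filter of 5 applied to each library, no filter at all, a pseudocount of 5, edgeR 4.0.16 and DESeq2 1.42.0 on the recovered reads, a replicate block, a fit to the compared groups alone, and fits without single libraries.

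The members and lists were chosen with earlier results of these data known. Named genes were all members, Sxl, grp and Slbp, of each list those called with the largest change against early embryos or wt, and the 3 genes nearest to roX1, roX2 and msl-2. The genes nod, CG11695, ec, CG3246, Pdsw, form3, Hsromega and 7SK were named for their position or as markers. Levels per kb used the gene lengths of the table of mutants. Coordinates, used for names and neighbours only, come from BDGP6.54.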

Additional observations from a re-analysis of the deposited data

Results flagged for a closer look

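The responses of 3 members to the mutations differed between grp fs1 and the mean of the Slbp mutants, as tested by the difference itself in limma. The log2 difference of msl-1 was 0.18 (SE 0.05, adjusted p = 0.028), with grp fs1 libraries above all Slbp libraries. That of msl-3 was -0.17 (SE 0.05, adjusted p = 0.0326), with grp fs1 libraries below all Slbp libraries. That of roX2 was 2.60 (SE 0.84, adjusted p = 0.0484), which rests on 1 and 19 reads in grp fs1 libraries and 0 reads in the 4 Slbp libraries, was 0.95 (adjusted p = 0.0953) without grp fs1 replicate 2, and was not called without any 1 of the wt or Slbp libraries either (adjusted p between 0.092 and 0.117). The calls of msl-1 and msl-3 were also lost without single grp fs1 or Slbp libraries (adjusted p between 0.0596 and 0.132), and none of the 3 was called with upper quartile scaling.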

How the results depend on the processing

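Of 834 member values under the alternatives, 705 kept both direction and call, 74 lost the call, 22 gained one and 33 changed sign. Counts of members called that moved by more than 1.5 times were the following. With no filter on low values they were 2 in nuclear against cytoplasmic, 2 in cytoplasmic against early and 1 in grp fs1 against wt. With upper quartile scaling they were 4 in nuclear against early, 3 in Slbp 10/15 against wt and 0 in grp fs1 against the Slbp mean. With only the compared groups, cytoplasmic against early had 2, and with DESeq2 Slbp 10/12 against Slbp 10/15 had 2. Leaving out each library gave 1 to 5 (nuclear against cytoplasmic), 2 to 3 (nuclear against early), 2 to 7 (cytoplasmic against early), 1 to 4 (grp fs1 against wt), 2 to 3 (Slbp 10/12 against wt), 4 to 6 (Slbp 10/15 against wt), 0 to 2 (grp fs1 against the Slbp mean) and 0 to 0 (Slbp 10/12 against Slbp 10/15). No source says that replicate numbers pair the samples, whose deviations correlated between -0.51 and 0.09. With a replicate block the counts were 4, 2, 4, 4, 3, 6, 2 and 0 in the same order, and 54 of 55 member values kept their call, all but roX2 in grp fs1 against the Slbp mean (2.60, adjusted p = 0.051). Upper quartile scaling moved the all-gene median to 0.64 (nuclear against cytoplasmic, 0.24 as deposited) and 0.41 (nuclear against early, 0.09 as deposited). It turned the log2 fold changes of msl-3 in nuclear against early (0.13), msl-1 (-0.034) and msl-3 (-0.28) in grp fs1, msl-1 (-0.38), msl-3 (-0.29), mle (-0.32) and mof (-0.32) in Slbp 10/12, and msl-1 (-0.18), msl-3 (-0.072), mle (-0.18) and mof (-0.15) in Slbp 10/15 against wt. The sign of mof in grp fs1 turned with edgeR (0.085), and that of roX1 in Slbp 10/12 against Slbp 10/15 with edgeR (-0.13) and DESeq2 (-0.16). Signs that turned when a library was left out belonged to values that were not called. Against wt these were mle in grp fs1 (-0.34 to 0.16), Slbp 10/12 (-0.19 to 0.31) and Slbp 10/15 (-0.049 to 0.45), mof in grp fs1 (-0.033 to 0.027), msl-3 in grp fs1 (-0.0011 to 0.061) and msl-1 in Slbp 10/12 (-0.044 to 0.055). Nuclear against early they were msl-1 (-0.23 to 0.29), msl-3 (-0.44 to 0.039) and roX2 (-0.56 to 0.58), and nuclear against cytoplasmic msl-2 (-0.013 to 0.20) and roX1 (-0.11 to 0.25). Between mutants they were roX1 in grp fs1 against the Slbp mean (-0.34 to 1.52), and msl-2 (-0.68 to 0.58) and roX1 (-1.06 to 2.65) in Slbp 10/12 against Slbp 10/15. Over all genes, 2485 were called in nuclear against early, 753 with no filter and 210 without nuclear replicate 1, and 325 in Slbp 10/12 against Slbp 10/15, 932 with DESeq2 and 6 without either wt library. The causes were not tested, and 2 libraries per group limit all calls.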
